A study of Mus musculus with 4 samples.

Results

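RFX2 binding was examined at the 6 mouse genes for cytosolic carboxypeptidases that act on tubulin: Agtpbp1, Agbl1, Agbl2, Agbl3, Agbl4 and Agbl5. The 6 genes were taken by name from 21951 annotated protein-coding genes. The rule uses no binding value, but the family was chosen with earlier results of these data known, which limits what its counts can show beside those of all genes. The promoter was taken as 1000 bp upstream to 500 bp downstream of any annotated transcription start site (TSS). RFX2 peaks were found in the promoters of Agbl3, Agbl4 and Agbl2, in both animals, and in none of the promoters of Agtpbp1, Agbl1 and Agbl5. Within the list that combines both replicates, the peak at Agbl3 was strong, that at Agbl4 intermediate and that at Agbl2 weak.

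Tubulin carries side chains of glutamate, which are abundant on the microtubules of cilia and of the sperm flagellum. Enzymes of the TTLL family add the glutamates, and cytosolic carboxypeptidases remove them. RFX2 is a transcription factor of spermatocytes and spermatids that binds the X-box, an inverted repeat, in the promoters of many genes for cilia. Agtpbp1 encodes CCP1, which trims glutamate chains and is mutated in the Purkinje cell degeneration mouse, whose males are sterile. Agbl5 encodes CCP5, which removes the branch point glutamate that joins a side chain to tubulin. Agbl2, Agbl3, Agbl1 and Agbl4 encode CCP2, CCP3, CCP4 and CCP6 respectively.

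Binding was mapped by chromatin immunoprecipitation and sequencing (ChIP-Seq) on decapsulated testis of wild type mice at postnatal day 29-30, on a mixed C57BL/6, 129/Sv and FVB/N background. The study's text describes dissociated germ cells of younger animals. The files cannot decide between these materials and ages. RFX2 was immunoprecipitated from 2 independent mice, and 2 inputs (chromatin without antibody) completed the 4 samples but entered only through the authors' peak calling. Peak lists hold no expression values, so the tissue was not checked against its markers. With 2 animals there is no test between samples, and the number of reads is unknown. Replicate 1 held 39825 peaks, replicate 2 held 21274, and a combined list held 2726, whose names point to a call on pooled reads. The combined list is therefore not independent of the replicates. The paper's methods also describe keeping only peaks that were reproducible between replicates. Of the 2726 combined peaks, 2723 were met by both replicates, and the lowest −log10 p was 43.2. Presence in the combined list may thus itself reflect agreement between the replicates. The replicate lists give 1 score per peak on a −log10 scale, and the combined list gives −log10 p, fold enrichment over local background and the summit, the position of highest signal. Ranks count from 1 at the highest value, and tied peaks share the best rank.

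The sequences under the promoter peaks are given first, since they differed among the 3 genes with a promoter peak. The X-box was taken as the 14-bp palindrome GTTGCCATGGCAAC, with 2 arms of 6 bases, and matches with at most 3 mismatches counted as an X-box. As a palindrome it reads the same on both strands. Each line below gives 30 bases of the plus strand of GRCm38, the strand of these 3 genes, with the match of 14 bases in capitals.
Agbl3, chr6:34780403-34780432: gtacagccGTTGCCCTGGCAACaagcggcc
Agbl4, chr4:110397737-110397766: ggccgccgGTTTCCCTGGCAACcgccgcgc
Agbl2, first match, chr2:90783793-90783822: tagccccgGTTGGCATGGAACTcactctgt
Agbl2, second match, chr2:90783813-90783842: ctcactctGTTGCCCGGACTACccttgaac
In a substitution such as A7C the palindrome's base comes first, then the position (the leftmost base printed in capitals is 1), then the base found. The Agbl3 site differed by A7C alone, so that both arms were intact. The Agbl4 site differed by G4T and A7C, with the right arm intact. The Agbl2 peak had no X-box by this definition. Its best matches had 4 mismatches each, namely C5G, C11A, A13C and C14T in the first and A7C, T8G, G10A and A12T in the second, which retained the left arm.

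In the combined list 3 of the 6 promoters were met by a peak (50%, 95% exact interval 11.8 to 88.2, counting error only). Over all protein-coding genes the share was 5.25%. The interval treats the genes as independent draws, which a family chosen by name is not, so it is no test against this share. The same 3 of 6 were met in the replicate 1 list, against 14% of all genes, and in the replicate 2 list, against 11.3%. With replicate peaks that overlapped each other by at least 1 bp, the count was again 3 of 6, against 8.77% of all genes. None of the promoter peaks at the 3 genes met the promoter of another protein-coding gene.

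**Figure D1:**
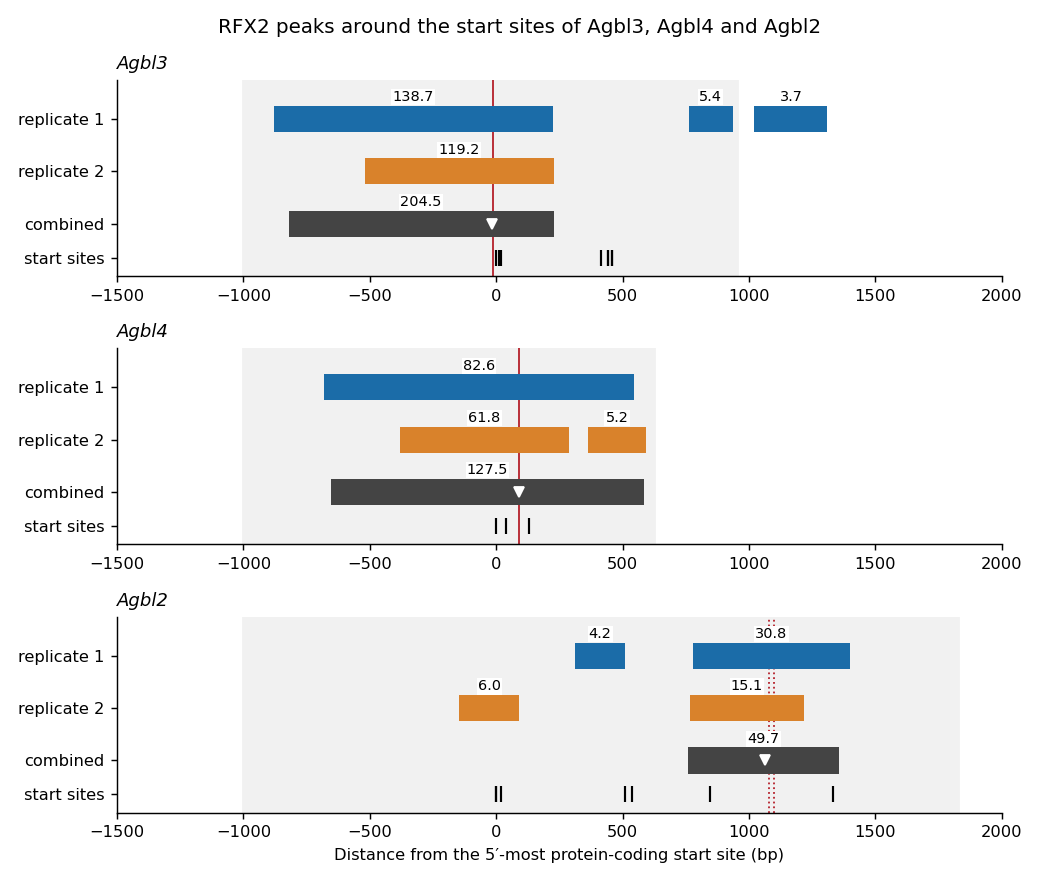
Peaks of replicate 1, replicate 2 and the combined list around Agbl3, Agbl4 and Agbl2, as bars by distance in bp from the 5′-most protein-coding start site; the number at each bar is its score (−log10 p in the combined list). Grey marks the promoter windows, black ticks the annotated start sites, white triangles the combined summits and red lines the X-boxes (dotted for the 2 matches with 4 mismatches at Agbl2). The summits lie on the X-boxes of Agbl3 and Agbl4, and the Agbl2 peak starts downstream of the first start sites.

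Agbl3 spans 79.0 kb on the plus strand of chromosome 6, from 34780432 to 34859459. Its promoter peak scored 139 in replicate 1 (rank 349) and 119 in replicate 2 (rank 68). In the combined list the peak ran from 34779611 to 34780659, with a −log10 p of 205, a rank of 245 and a 16.3-fold enrichment. This placed it in the top 8.99% of the combined list and at rank 155 of the 1003 peaks that met a promoter. The summit, at 34780416, lay 16 bp upstream of the first TSS and inside the X-box, which runs from 34780411 to 34780424. The site is upstream of all 11 annotated Agbl3 transcripts. A second, small promoter peak with a score of 5.38, from 34781193 to 34781367, was present in replicate 1 only. The 120 bases before the first TSS, chr6:34780312-34780431 of GRCm38 on the plus strand, are shown with the X-box in capitals, because they hold the summit and lie in no annotated transcript.
Agbl3 upstream: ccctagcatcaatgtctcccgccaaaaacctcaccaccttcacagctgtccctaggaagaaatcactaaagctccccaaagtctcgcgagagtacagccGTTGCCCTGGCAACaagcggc

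Agbl4 is the longest of the 6 genes, with 1267 kb on the plus strand of chromosome 4, from 110397661 to 111664324. Its promoter peak scored 82.6 in replicate 1 (rank 944) and 61.8 in replicate 2 (rank 368). The combined peak ran from 110397006 to 110398246, with a −log10 p of 127, a rank of 678 and a 13.7-fold enrichment. Its summit, at 110397753, was inside the X-box from 110397745 to 110397758. The site lay between start sites: it was in noncoding sequence of the first exon of 4 transcripts and upstream of the TSS at 110397791, with its middle at −39 bp. Replicate 2 listed a separate small peak with a score of 5.18 at the right end of the combined peak.

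Agbl4 has further start sites within the gene. No list had a peak in the promoters of the internal start sites, at 111118841, 111118911, 111566695 and 111566725. The promoter at 111118841 nevertheless held an X-box with 2 mismatches, as many as the site under the promoter peak, at −106 bp of the TSS. It is shown beside the site printed above, on the plus strand of GRCm38 with the match in capitals.
Agbl4 internal promoter, no peak, chr4:111118720-111118749: attgtcccATTGCCATGGCACCgttctcct
This site differed from the palindrome by G1A and A13C. A missing peak does not show that RFX2 was absent there.

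Agbl2 spans 51.7 kb on the plus strand of chromosome 2, from 90782727 to 90834437. Its main peak scored 30.8 in replicate 1 (rank 2984) and 15.1 in replicate 2 (rank 2332). The combined peak ran from 90783486 to 90784084, at 10.8-fold enrichment and a −log10 p of 49.7. It ranked 2389 of 2726, among the weakest of the list. The summit, at 90783792, lay 219 bp downstream of the TSS at 90783573 and 1065 bp downstream of the first TSS. The peak thus counted as a promoter peak only through start sites other than the first, and with the 5′-most protein-coding TSS alone it dropped out of the combined count, which fell to 2 of 6. The matches printed above, in intronic sequence of 7 of the 8 transcripts, had their middles 15.5 and 35.5 bp from the summit. Weak peaks near the first start sites did not coincide between animals: replicate 1 had a peak from 90783040 to 90783237 with a score of 4.16, and replicate 2 one from 90782581 to 90782819 with a score of 6.03.

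To set these sites in context, all windows of 201 bp around combined summits were searched in the same way. An X-box was present in 75.5% of all summit windows, in 58.9% of those of promoter peaks, and in 2.51% of windows of the same length centred on the first TSS of 21853 protein-coding genes. At most 1 mismatch, as at Agbl3, was found in 9.57% of promoter-peak windows and in 0.160% of the windows at start sites. At most 2, as at Agbl4, were found in 33.9% and 0.897%. At most 4 mismatches, the level reached at Agbl2, occurred in 78.1% of promoter-peak windows and 8.76% of windows at start sites. The intact left arm at Agbl2, GTTGCC on either strand, was present in 56.8% of promoter-peak windows and 8.50% of windows at start sites.

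Agbl3 and Agbl4 shared A7C. Among the best X-boxes of promoter peaks, 14.9% carried A7C or its equivalent on the other strand, T8G, against 8.17% among the best X-boxes of all combined peaks. These sets overlap. Both arms were intact, as at Agbl3, in 7.11% of the X-boxes of promoter peaks. The summit lay inside the X-box, as at both genes, in 49.9%.

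The order Agbl3, Agbl4, Agbl2 was the same in replicate 1, replicate 2 and the combined list, both by score and by fold enrichment where it was given. The fold enrichments differed less than the −log10 p. Of the 100 combined peaks nearest in rank to Agbl3, whose median fold enrichment was 24.7, only 11 had a lower fold enrichment than Agbl3. At Agbl4 the median of the 100 nearest was 21.8 and 13 were lower. At Agbl2 the median was 12.6 and 26 were lower. All 3 genes thus lay below the median of peaks of like rank, which were drawn from all combined peaks, inside and outside promoters. Promoter peaks as a class had a lower median fold enrichment, 15.0 against 17.0 over all combined peaks. Their median −log10 p was higher, 103 against 82.1. The comparison was not made among promoter peaks alone, so whether a low fold for the rank is particular to these genes was not tested.

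**Figure D2:**
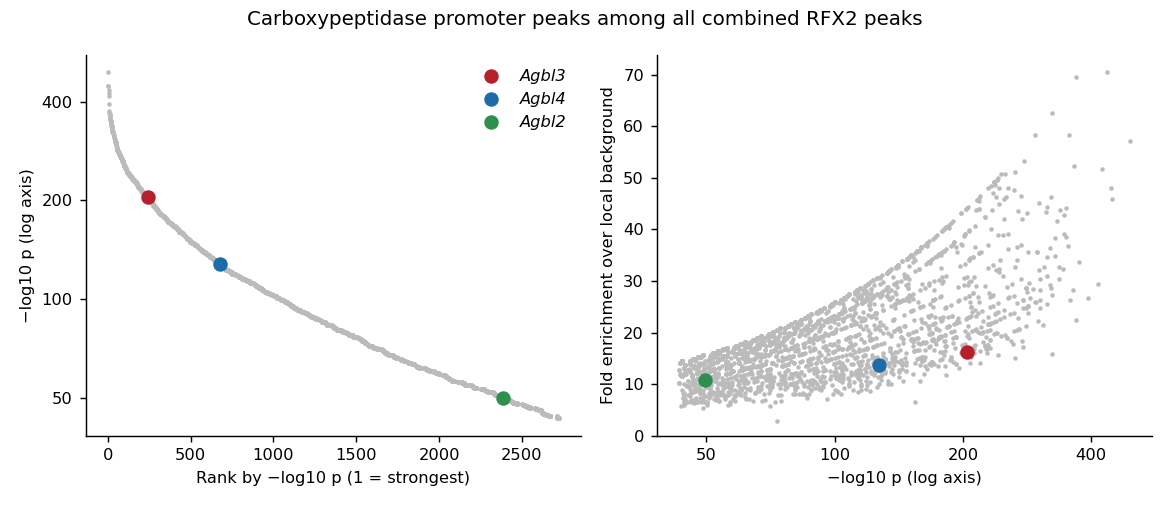
Left, −log10 p (log axis) of all 2726 combined peaks by rank; right, fold enrichment over local background against −log10 p (log axis). Agbl3, Agbl4 and Agbl2 are coloured and all other peaks are grey. In the right panel Agbl3 (16.3-fold) and Agbl4 (13.7-fold) lie near the lower edge of the peaks of similar −log10 p.

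Replicate 2 gave lower scores than replicate 1 at all 3 genes, but less so at Agbl3 and Agbl4 than at most sites. The ratio of the score in replicate 2 to that in replicate 1 was 0.859 at Agbl3, 0.748 at Agbl4 and 0.492 at Agbl2. The median over the 2723 combined peaks met by both replicates was 0.396, and 0.481 over promoter peaks. The ratio was lower than that of Agbl3 in 95.2% of the combined peaks, lower than that of Agbl4 in 91.4% and lower than that of Agbl2 in 67.2%. Scores depend on depth and are on a −log10 scale, so a ratio is not a measure of binding in 1 animal against the other. Whether ratios are comparable between peaks of different strength or class was not tested.

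**Figure D3:**
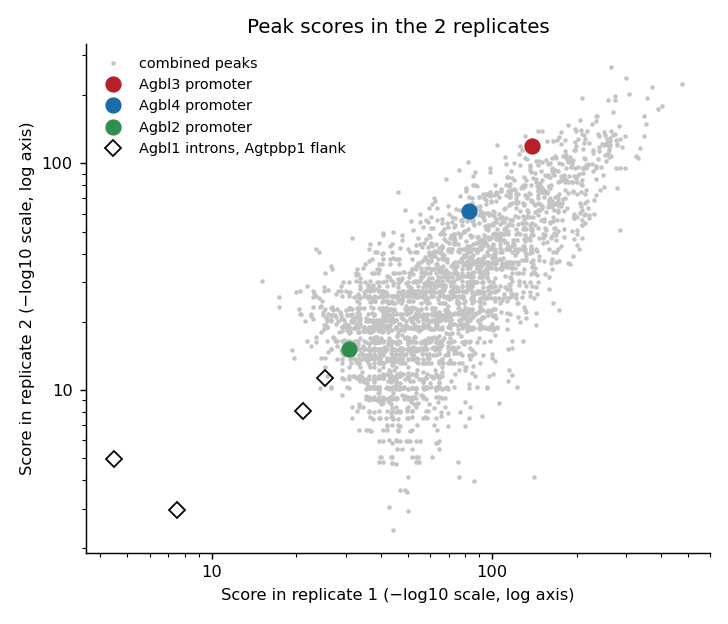
Score in replicate 2 against score in replicate 1 (both on a −log10 scale, log axes) for all combined peaks (grey), for the promoter peaks of Agbl3, Agbl4 and Agbl2 (coloured) and for peaks outside promoters shared by both replicates in Agbl1 and beside Agtpbp1 (open diamonds). Agbl3 (139 and 119) and Agbl4 (82.6 and 61.8) lie towards the upper edge of the grey points.

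The genes whose promoter peaks were most like those of the carboxypeptidases were sought by the summed difference of ranks over the 3 lists, among 1138 genes with a promoter peak in all of them. For Agbl3 they were Ap1s1 (summed difference 78) and Tctex1d2 (84). For Agbl4 they were Ehd1 (64) and Arf2 (117), and for Agbl2 Vasp (342) and Mipep (363).

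Agtpbp1, Agbl1 and Agbl5 had no promoter peak in any list, and peaks under the thresholds of the authors are not listed. Agtpbp1 spans 139 kb on the minus strand of chromosome 13, from 59445742 to 59585227, with 22 annotated start sites. Replicate 1 had 4 peaks in the gene, with scores of 2.96 to 3.64, and replicate 2 had 0. The nearest to a start site lay 989 bp downstream of it, with a score of 3.31. Its nearest combined peak was 304 kb from a start site.

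A peak 42.8 kb beyond the 3′ end of Agtpbp1 was present in both replicates. It ran from 59402010 to 59402954 in replicate 1, with a score of 25.4 (rank 3573), and from 59401999 to 59402456 in replicate 2, with a score of 11.3 (rank 3118). It was in neither the promoter nor the body of an annotated gene and was absent from the combined list. Agtpbp1 had the nearest protein-coding start site, at 48.0 kb. The peak held an X-box with the changes A7G and C11A, shown on the plus strand of GRCm38 because both animals had a peak over it.
Downstream of Agtpbp1, chr13:59402307-59402336: gctttgttGTTGCCGTGGAAACcagcaccc

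Agbl1 spans 895 kb on the plus strand of chromosome 7, from 76229887 to 77124698, with start sites at 76229887 and 76411062. Replicate 1 had 20 peaks in the gene and replicate 2 had 8, of which 3 in each overlapped. Per length this came to 22.4 peaks per Mb in replicate 1, against 14.6 over the genome, and 8.94 per Mb in replicate 2, against 7.81. The strongest shared peak was intronic, with its centre in replicate 1 at −8.79 kb of the second TSS. It ran from 76401968 to 76402577 in replicate 1 with a score of 21.2, and from 76402268 to 76402492 in replicate 2 with a score of 8.10. The other shared peaks were weak, with scores of 7.53 and 4.47 in replicate 1 and 2.96 and 4.95 in replicate 2, and held no X-box. The strongest peak of the gene, from 77087276 to 77087936 near its 3′ end, scored 27.9 in replicate 1 and was not met in replicate 2. Of the 100 replicate 1 peaks nearest to it in rank, 89 were met in replicate 2. Both peaks held an X-box with 2 mismatches, shown on the plus strand of GRCm38 with the match in capitals, since 1 was seen in both animals and the other in replicate 1 alone.
Agbl1 intron, both replicates, chr7:76402408-76402437: gtgaggtgGTTGCTATGGTAACctgcaggc
Agbl1 intron, replicate 1, chr7:77087429-77087458: agcatgtgGTTGCTATGGGAACcataagcc
The first differed from the palindrome by C6T and C11T and the second by C6T and C11G. The nearest combined peak to an Agbl1 start site was 1385 kb away, and 91.8% of genes had a combined peak as close or closer.

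Agbl5 is the shortest of the 6 genes, with 18.3 kb on the plus strand of chromosome 5, from 30888694 to 30906965, and has 15 start sites. Replicate 1 had 0 peaks in the gene or within 60 kb of it. Replicate 2 had 1 intronic peak, from 30903999 to 30904154, with a score of 4.99. The nearest combined peak, 74.2 kb upstream, was 1 of the strongest of the list, ranking 18 with 345 for −log10 p and 39.0-fold enrichment. It lay in the promoter of Mapre3, which encodes a protein of the EB family that binds microtubule ends. Over all genes the median distance from a start site to the nearest combined peak was 205 kb, so that Agbl5 was nearer than most genes, at 74.2 kb, and Agtpbp1 farther, at 304 kb.

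**Figure D4:**
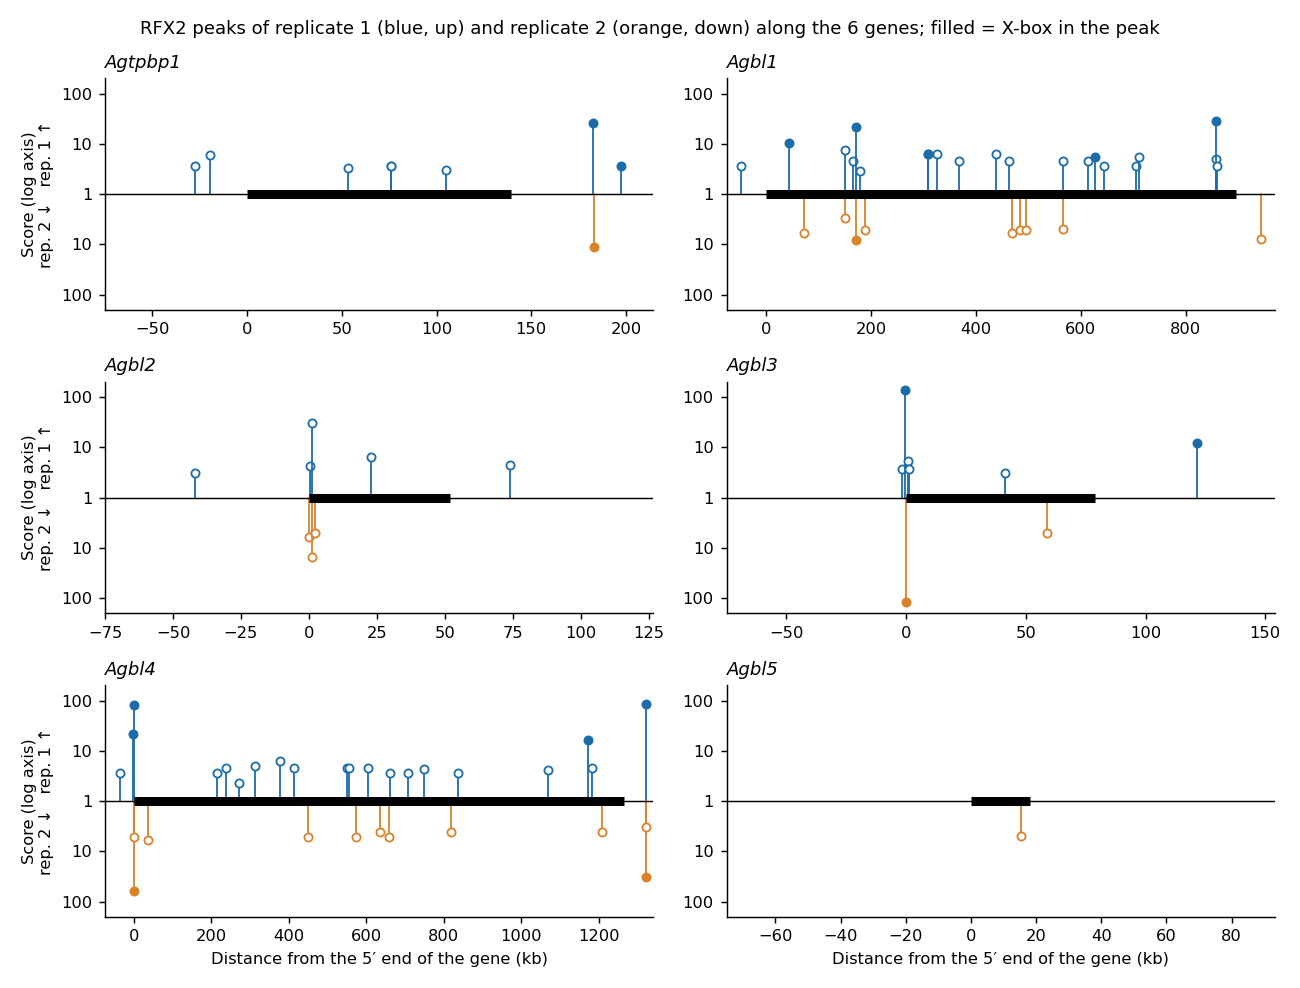
Score (−log10 scale, log axis) of each replicate 1 peak (blue, upward) and replicate 2 peak (orange, downward) along the 6 genes and 60 kb on either side, by distance in kb from the 5′ end of the gene; black bars mark the genes, filled circles peaks with an X-box and open circles peaks without. The promoter peaks of Agbl3 and Agbl4 stand above the scattered weak peaks of the long genes Agbl1 and Agbl4, and Agbl5 has the single replicate 2 peak at 4.99.

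Counting peaks anywhere in the gene or its promoter, 5 of the 6 genes were met in replicate 1, against 36.3% of all genes, and 5 of 6 in replicate 2, against 28.9%. In the combined list the count was 3 of 6, against 8.25%. These counts rise with the length of a gene, and the 2 longest genes held most of the peaks outside promoters. Agbl4 had 16 such peaks in replicate 1 and 7 in replicate 2. Its density, promoter included, was 13.4 peaks per Mb in replicate 1 and 7.11 in replicate 2, against 14.6 and 7.81 over the genome.

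Beside Agbl4, a peak 3.18 kb upstream of the gene, from 110394055 to 110394485, scored 21.3 in replicate 1 and was not listed in replicate 2. Of the 100 replicate 1 peaks nearest to it in rank, 70 were met in replicate 2. An intronic peak, from 111569513 to 111570045, scored 16.2 in replicate 1 only. Here 49 of the 100 nearest in rank were met. Both of these replicate 1 peaks held an X-box with 2 mismatches, T3C and G4C in the first and T8A and G10A in the second. Thus the same number of mismatches as in the Agbl4 promoter accompanied lower scores at these positions. The nearest other combined peak, 55.2 kb beyond the 3′ end of Agbl4, met the promoter of Spata6, a gene of spermatogenesis, with a −log10 p of 104, a rank of 967 and a 10.5-fold enrichment.

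The promoters of the 6 genes were also searched for the X-box over their whole 1501 bp, whether or not they had a peak. Over all genes, 8.96% had an X-box in the promoter of the first TSS, with 1 window per gene. The 6 genes were searched at every annotated start site, so this share is a like comparison only for their first start sites. All 8 start sites of Agbl3 had the site with 1 mismatch in their promoter, and 5 of 7 of Agbl4 had a site with 2. None of the 7 start sites of Agbl2, of the 22 of Agtpbp1 or of the 2 of Agbl1 had an X-box, the best matches having 4 mismatches at Agbl2, 4 at Agtpbp1 and 5 at Agbl1. At the first TSS of Agbl5 the best match had 5 mismatches. Of its 15 start sites, 3 had a site with 3 mismatches, G1C, T2C and G10A, exonic and 233 bp downstream of the TSS at 30894204. No list had a peak over this site.

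The enzymes and partners that act on tubulin with the carboxypeptidases were taken from 5 lists of 30 genes, all matched in the annotation. In the combined list 10 of the 30 had a promoter peak, against 5.25% of all genes, and 15 of the 30 had one shared by both replicates, against 8.77%. Of the 14 ligases that add glutamate, glycine or tyrosine, 4 were met in the combined list and 8 in both replicates. Ttll9, a polyglutamylase, had 27.7-fold enrichment and a −log10 p of 211 (rank 212), a rank near that of Agbl3 with a higher fold. Ttll10, a polyglycylase, had 133 (rank 635), a rank near that of Agbl4, with 27.1-fold enrichment against 13.7-fold. Ttll3, which adds the first glycine, had 50.1 (rank 2378) and 6.54-fold enrichment. Ttll1, the catalytic subunit of a polyglutamylase complex, had 47.1 (rank 2529) and 8.60-fold enrichment. Both ranks were near that of Agbl2, which had 10.8-fold enrichment.

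Of the 4 partners of TTLL1, 3 were met in the combined list, namely Lrrc49 with a −log10 p of 322 (rank 31), Tpgs1 with 163 (rank 420) and Nicn1 with 143 (rank 552). None of the 3 detyrosination genes was met in the combined list, against 5.25% of all genes, and 1 in replicate 1, against 14%. So few genes allow no contrast with the other lists. Of the 3 genes for acetylation and deacetylation, the deacetylase gene Sirt2 was met, with 55.6 (rank 2144), by a peak that also met the promoter of Nfkbib. Of the 6 severing enzymes, Katnal2 was met with 320.0 (rank 33) and Katnal1 with 108 (rank 921). Genes with a promoter peak were thus found among enzymes that add glutamate as well as among the carboxypeptidases that remove it.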

How the data were processed

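RFX2 ChIP-Seq peak lists from 2 wild type replicates, labelled as testis and each with an input, were analysed. Per the submitters' processing notes, CASAVA 1.8.2, Bowtie 0.12.7 and MACS2 2.0.10.20130520 were used. Reads with several locations were discarded by the authors. Replicate 2 was sequenced in more than 1 run, and reads that mapped to human DNA, found in the later run, were removed by the authors before pooling. In the deposited replicate lists the authors gave 1 score per peak on a −log10 scale, and whether it is of p or q is not given in the sources used here. In the deposited combined list the authors gave −log10 p, −log10 q, the fold enrichment (a ratio to local background) and the summit. The combined list is filed with replicate 2 and was taken as a pooled call from its peak names. The paper's methods describe keeping only peaks reproducible between the replicates, so the list may also have passed that filter. Depth per list is unknown.

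Coordinates are of GRCm38, 1-based. The files name Ensembl release 70, and genes were taken from GENCODE release M21. Peaks met a promoter (1000 bp upstream to 500 bp downstream of any TSS) with at least 1 bp. Distances were taken from the summit, or from the peak centre in the replicate lists. X-boxes were sought with at most 3 mismatches within 100 bp of combined summits, and over the whole peak otherwise. No test was made between samples, and intervals are exact binomial (95%). Python 3.11.15, pandas 2.3.3, scipy 1.17.1 and pysam 0.24.0 were used, and the scripts were checked on simulated data.

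The genes named are the 6 carboxypeptidases, genes that share their promoter peaks, the 2 genes of most like rank for each member with a combined promoter peak, and genes of the tubulin modification lists with a combined promoter peak. Mapre3 and Spata6 were named after their values were seen. The members and lists were chosen with earlier results of these data known. Alternatives covered the promoter window, the start sites, the overlap, score thresholds, the motif and each replicate left out.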

Additional observations from a re-analysis of the deposited data

How the results depend on the processing

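The count of 3 promoters with a peak, namely Agbl2, Agbl3 and Agbl4, was obtained in 22 of 27 recomputed counts. The other 5 counts were 2, all without Agbl2: with the 5′-most protein-coding TSS only (combined list and both replicates), with the top 50% of the combined list, and with as many top peaks of replicate 1 as the combined list holds (replicate 1 and both replicates). Counts without replicate 1 or replicate 2 were 3 to 3, but they are no separate check: the combined list was not called again, and the count without 1 replicate is that of the other. With the top 50% of each list, the genes with a peak in the gene or promoter were 4 in replicate 1, 4 in replicate 2 and 2 in the combined list, against 5, 5 and 3. With the peak centre in place of the summit, 0 promoter peaks had an X-box within 100 bp, against 2. With the 5′-most TSS only, the distance of the nearest combined peak became −304704 bp at Agtpbp1, 1566036 bp at Agbl1, 1065 bp at Agbl2 and 92 bp at Agbl4. With the peak centre it became −297 bp at Agbl3 and −74406 bp at Agbl5. The share of all genes with a promoter peak fell to 11.2% in replicate 1 and 9.31% in replicate 2 with a window from 500 bp upstream to 50 bp downstream. With the 5′-most TSS only it was 9.71%, 8.26% and 4.48% in replicate 1, replicate 2 and the combined list. The cause of these shifts was not tested beyond the change of setting itself. RefSeq start sites (3 in each list) and at most 4 mismatches (a match at 3 genes, against 2) were added after seeing the data. No paired analysis was possible because the peak lists give no values for the inputs and no test was made between groups. Depth is unknown, so a missing peak sets no limit on binding.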

Other observations

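Weak peaks took a few recurring scores. In replicate 1 the 5 most frequent scores covered 48.4% of the peaks, of which 2.42% were met by replicate 2, against 36.9% of the other peaks. At these scores 9.44% of the peaks held an X-box, and at other scores 42.6%. In replicate 2 the 5 most frequent scores covered 8236 of the 21274 peaks, with 16.4% met by replicate 1 against 53.5% of the others, and an X-box in 10.7% against 37.3%. Peaks at recurring scores were narrower, with a median width of 166 against 275 bp in replicate 1 and 156 against 215 bp in replicate 2. The recurring scores were at most 7.27 and 6.03, so the other peaks include all stronger ones. The shares were not adjusted for width or score. Of the 43 peaks of replicate 1 within the 6 carboxypeptidase genes but outside their promoters, 27 had such a score. Among these 27, 1 held an X-box and 1 was met by replicate 2, and among the other 16, 5 held an X-box and 2 were met. In replicate 2, 14 of 18 such peaks had a recurring score, and of these 0 held an X-box and 0 were met by replicate 1. Of the other 4, 1 held an X-box and 3 were met.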
